A study of Rattus norvegicus with 18 samples.

Results

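The extracellular matrix genes examined here are 44 genes that encode collagens, proteoglycans, elastic fibre proteins, basement membrane components, adhesive glycoproteins and the enzymes and inhibitors that process them. Every probe set of the array whose only gene symbol in the platform annotation was one of these symbols was taken as a member. This gave 75 probe sets for 43 genes, out of 31042 probe sets without controls and 14218 named genes on the array. Thbs1 had no such probe set and has no value here. Of the 43 genes, 24 had more than 1 probe set, and the one with the highest mean log2 signal in the tissue stands for the gene unless stated otherwise.

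The study measured RNA of rats after Roux-en-Y gastric bypass (RYGB), surgery in which food is led from a reduced stomach directly into the jejunum. On 18 arrays, 9 held RNA of subcutaneous abdominal fat and 9 RNA of the hypothalamus, the brain region that governs food intake. Each tissue had 3 arrays of each of 3 groups. RYGB-Success rats were operated and were losing weight, RYGB-Fail rats were operated and were gaining weight again, and Pair-Fed rats received the same amount of food as the treated rats. The design text calls the RNA samples of a group biological replicates. Strain, sex, age and time after surgery, and whether the Pair-Fed rats had a sham operation, are not given in the sources used here. Arrays are numbered within a group as in their titles. The Pair-Fed arrays are the controls of both RYGB groups, so the comparisons of RYGB-Success and of RYGB-Fail with Pair-Fed share them.

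The extracellular matrix is the network of secreted proteins that surrounds cells. In adipose tissue, fibroblast-like stromal cells and adipocytes deposit fibrillar collagens between the fat cells, and each adipocyte is enclosed in a basement membrane of type IV collagen, laminins and nidogen. The matrix is remodelled when fat stores grow or shrink, by metalloproteinases and their inhibitors and by enzymes that crosslink collagen and elastin. Brain tissue holds little fibrillar collagen outside its vessels and meninges.

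Across the members, fat of RYGB-Success rats had lower matrix signals than fat of Pair-Fed rats, with a median change of -1.04 on the log2 scale over 42 measured genes. No member passed the test across all probe sets, so the changes below are given as values. The members with the lowest p were Mfap5, Ecm1, Timp2 and Loxl1, whose promoter windows are shown together with that of Timp3, a relative of Timp2 whose signal in RYGB-Success fat lay within the Pair-Fed range on 2 of 3 arrays. The windows run from 250 bases before to 50 bases after the annotated start of the gene, from RefSeq on GRCr8. RefSeq windows were found for 29 of the 44 genes by symbol. Capitals mark 3 motifs on either strand, the CCAAT box, the TATA box written as TATAAA and the GC box written as GGGCGG, and no marked motifs overlapped in these windows.
Mfap5: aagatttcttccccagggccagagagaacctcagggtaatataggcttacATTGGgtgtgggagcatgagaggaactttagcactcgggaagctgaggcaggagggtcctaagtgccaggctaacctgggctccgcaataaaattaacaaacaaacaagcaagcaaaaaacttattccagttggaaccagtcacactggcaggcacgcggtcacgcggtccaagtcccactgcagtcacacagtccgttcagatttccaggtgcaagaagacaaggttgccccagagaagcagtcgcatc
Ecm1: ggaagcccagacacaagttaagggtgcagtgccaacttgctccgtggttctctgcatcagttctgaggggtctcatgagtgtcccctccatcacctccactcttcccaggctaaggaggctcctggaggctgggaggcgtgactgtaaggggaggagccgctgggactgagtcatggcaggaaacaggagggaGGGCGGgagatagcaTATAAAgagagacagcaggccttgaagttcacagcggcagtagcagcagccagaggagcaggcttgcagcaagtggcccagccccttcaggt
Timp2: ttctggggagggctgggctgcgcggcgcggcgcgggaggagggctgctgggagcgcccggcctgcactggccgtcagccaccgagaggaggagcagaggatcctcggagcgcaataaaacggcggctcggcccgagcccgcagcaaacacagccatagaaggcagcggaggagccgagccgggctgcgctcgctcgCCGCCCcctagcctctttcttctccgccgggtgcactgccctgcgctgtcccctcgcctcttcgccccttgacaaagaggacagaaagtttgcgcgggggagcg
Loxl1: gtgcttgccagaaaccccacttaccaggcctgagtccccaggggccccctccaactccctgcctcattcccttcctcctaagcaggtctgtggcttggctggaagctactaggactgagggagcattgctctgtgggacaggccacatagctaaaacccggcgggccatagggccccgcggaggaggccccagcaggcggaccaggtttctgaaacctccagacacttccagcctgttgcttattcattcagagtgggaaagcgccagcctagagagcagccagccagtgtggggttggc
Timp3: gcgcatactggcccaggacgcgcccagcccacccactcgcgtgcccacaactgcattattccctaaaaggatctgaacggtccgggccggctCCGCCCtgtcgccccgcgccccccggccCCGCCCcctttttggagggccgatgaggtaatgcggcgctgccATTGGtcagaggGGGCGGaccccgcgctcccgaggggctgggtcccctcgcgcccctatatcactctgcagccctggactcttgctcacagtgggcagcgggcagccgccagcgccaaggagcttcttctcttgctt
The window of Mfap5 is chr4:157399669-157399968 on the + strand and holds 1 CCAAT box. That of Ecm1, chr2:185981557-185981856 on the - strand, holds 1 TATA box and 1 GC box. The Timp2 window, chr10:104089165-104089464 on the - strand, holds 1 GC box, and the Loxl1 window, chr8:67612175-67612474 on the - strand, holds 0 of the 3 motifs. For Timp3 the window is chr7:19459509-19459808 on the - strand, with 1 CCAAT box and 3 GC boxes. Over 33469 windows of the same length, 37.5% held the CCAAT box, 14.2% the TATA box and 33.1% the GC box, and of the 30 windows of member genes the shares were 36.7%, 13.3% and 63.3%. These are matches of letters and describe the windows only.

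Whole-array measures set the frame for these values. Median signals on the fat arrays ran from 98.2 to 200 on 8 arrays and were 288 on RYGB-Fail 3, which also had the lowest 3' to 5' ratio of beta-actin controls in fat, 2.46 against 12 to 24.3 on the others. In fat the mean log2 signal over the 42 tested members was 11.73, 11.51 and 11.47 on the Pair-Fed arrays, 10.72, 10.70 and 9.84 on the RYGB-Success arrays and 11.68, 10.86 and 10.35 on the RYGB-Fail arrays. All 3 RYGB-Success arrays thus lay below all 3 Pair-Fed arrays, while RYGB-Fail 1 lay within the Pair-Fed range and the other RYGB-Fail arrays below it. In the hypothalamus the mean over 31 tested members ran from 7.76 to 7.90 in Pair-Fed, from 7.60 to 8.11 in RYGB-Success and from 7.77 to 7.89 in RYGB-Fail, so the groups overlapped.

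**Figure D1:**
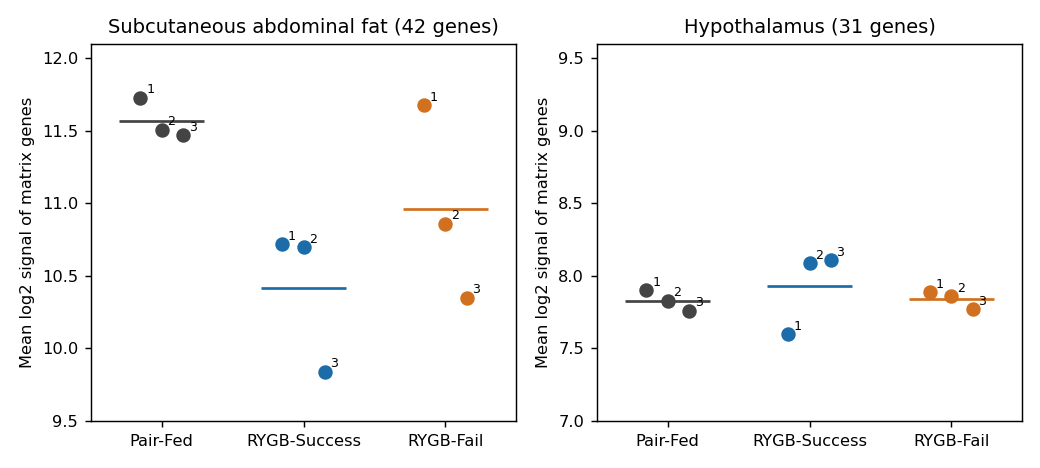
Mean log2 signal of the measured matrix genes on each array (points, numbered by replicate) and group mean (line) in fat, left, over 42 genes, and in hypothalamus, right, over 31 genes; both vertical axes span the same number of log2 units but start at different values. In fat the RYGB-Success arrays lie between 9.84 and 10.72, below the Pair-Fed arrays at 11.47 to 11.73, and the RYGB-Fail arrays spread from 10.35 to 11.68.

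Fat of RYGB-Success rats was compared with fat of Pair-Fed rats to see how tissue of animals losing weight after the operation differed from that of animals eating the same amount. Of 42 members tested, 40 had a lower mean and 2 a higher mean in RYGB-Success, where 41.8% of all tested probe sets were lower and their median change was 0.11. Changes ranged from -2.93 for Mfap5 to 0.51 for Fmod. With limma and Benjamini-Hochberg adjustment over 18625 probe sets 0 members passed, the lowest adjusted p being 0.482, and the share of all probe sets that passed was 0%. At an unadjusted p under 0.05, 26 members were lower and 0 higher, against 3.02% lower and 1.84% higher among all probe sets. The 3 RYGB-Success arrays lay wholly below the 3 Pair-Fed arrays for 27 members and wholly above for 0, against 7.69% and 10.9% of all probe sets. Fbln1 was not tested because its signal was under the filter. In whole tissue, fewer cells of a type and less RNA per cell cannot be told apart.

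RYGB-Success 3 contributed most to this difference, being the lowest of its group for 33 of 42 members, or 78.6%, against 33.2% of all probe sets. Without it, 37 members were lower, the median was -0.62 and 15 members had an unadjusted p under 0.05, against 1.84% of all probe sets. Members wholly below the Pair-Fed arrays then numbered 29, against 11.2% of all probe sets. Leaving out an array can only keep or raise such a count, so it does not show how far the difference rests on that array. Without RYGB-Success 1, 22 probe sets of the array passed and 1 of them was a member, Mfap5 (-3.40 ± 0.49, SE, adjusted p = 0.0294). With arrays weighted by their agreement with the others, 39 probe sets passed, among them 10 of 8 member genes. Adjusted p was then 0.036 for Mfap5 and Ecm1 and 0.0432 for Timp2, Loxl1, Ogn, Fn1 and Lox.

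Fat of RYGB-Fail rats was compared with the same Pair-Fed arrays. Here too 40 of 42 members had a lower mean, by a median of -0.62, against a median of -0.09 over all tested probe sets, of which 58.1% were lower. With limma 0 members and 0% of all probe sets passed. At an unadjusted p under 0.05, 2 members were lower, the basement membrane genes Col4a2 and Nid1, and 0 were higher, against 1.27% and 1.42% of all probe sets. Arrays of the 2 groups did not overlap for 11 members, all lower in RYGB-Fail, against 4.33% of all probe sets lower and 2.57% higher. Of these 11, 5 were among the 7 basement membrane genes and 4 among the 5 fibrillar collagens. The value depended on single arrays. Without RYGB-Fail 3 the median was -0.33 with 34 members lower, and 11 members did not overlap on the lower side where 21.3% of all probe sets did. Here too, leaving out an array can only keep or raise a count without overlap. Without RYGB-Fail 1, which was the highest of its group for 35 of 42 members, the median was -0.96. There 19 members had an unadjusted p under 0.05 on the lower side, against 6.23% of all probe sets, and 31 lay wholly below Pair-Fed, against 16.2%. That count at an unadjusted p was 9 without RYGB-Success 3, an array that enters this comparison only through the shared spread, 5 without RYGB-Fail 3, against 8.52% of all probe sets, and 0 without RYGB-Fail 2 or Pair-Fed 2. For the 9 the share of all probe sets is not given here, so it is not read as particular to the members. With array weights the median was -0.15, with 28 members lower.

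The direct comparison of RYGB-Success with RYGB-Fail fat gave 32 members lower and 10 higher in RYGB-Success, with a median of -0.41 where all probe sets had 0.17 and 37.4% of them were lower. With limma 0 members and 0% of all probe sets passed. At an unadjusted p under 0.05, 10 members were lower and 0 higher, against 2.27% and 3.43% of all probe sets. The arrays did not overlap for Mfap5, Loxl1, Fn1 and Ecm1, all 4 lower in RYGB-Success, and for 0 members higher, against 2.61% and 5.26% of all probe sets. Without RYGB-Fail 3, 1116 of the 18625 tested probe sets passed, where 0% did with all arrays. Among them were those of Mfap5 (-2.59 ± 0.50, adjusted p = 0.0212), Timp2 (-1.86 ± 0.36, adjusted p = 0.0213), Lox (-1.59 ± 0.35, adjusted p = 0.0277), Mfap4 (-2.68 ± 0.60, adjusted p = 0.0291) and Ecm1 (-1.76 ± 0.42, adjusted p = 0.0376). Calls thus appeared across the whole array, and those of these genes are not read as particular to the members. The median was then -0.78, with 16 members lower at an unadjusted p under 0.05, against 5.37% of all probe sets. It was -0.14 without RYGB-Fail 1 and -0.19 without RYGB-Success 3, each with 4 such members, whose matching share of all probe sets is not given here. Of 20 named values of this comparison, leaving out 1 array moved 16 by over 1.5 times, as it did 10 of 21 in RYGB-Success and 15 of 19 in RYGB-Fail against Pair-Fed.

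**Figure D2:**
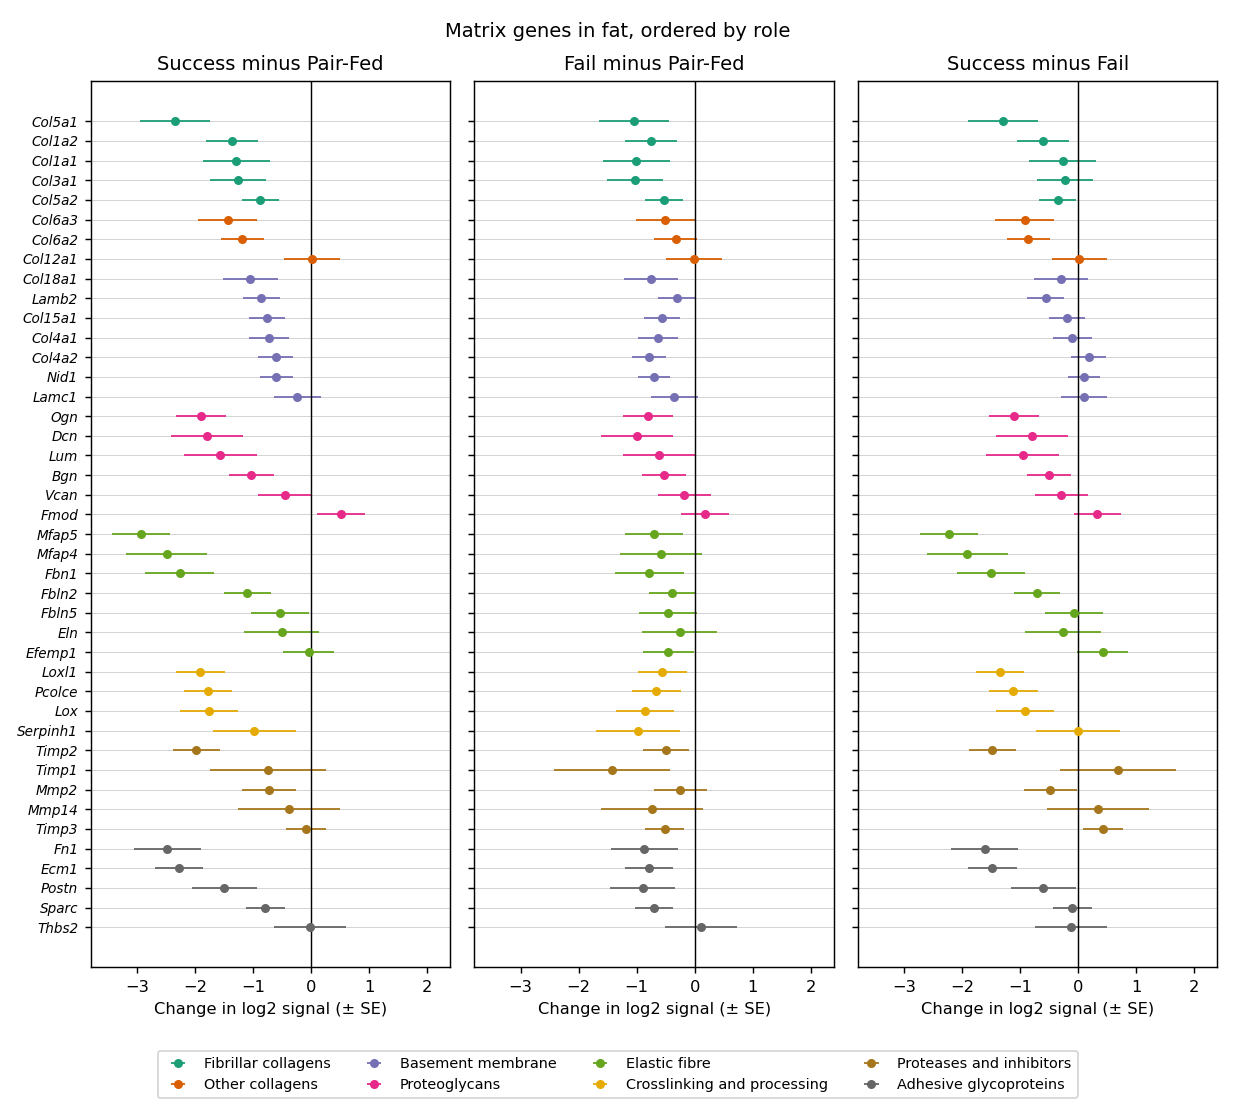
Change in log2 signal of each of the 42 measured matrix genes in fat (points; bars are ± SE from limma, 3 arrays per group), grouped by role, for RYGB-Success against Pair-Fed, RYGB-Fail against Pair-Fed and RYGB-Success against RYGB-Fail. Most points lie left of 0 in the first 2 panels, where 40 of 42 genes are lower, and Mfap5 is the farthest left in the comparisons with RYGB-Success.

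Fibrillar collagens form the tensile fibres of connective tissue. All 5 were lower in RYGB-Success than in Pair-Fed fat without overlap, with a median of -1.29, and all 5 were lower in RYGB-Fail, with a median of -1.01. For each role here and below, 7.69% of all probe sets were lower without overlap in RYGB-Success and 4.33% in RYGB-Fail. Col1a1, the alpha 1 chain of type I collagen, had signals of 22322, 22026 and 16749 in Pair-Fed, 11886, 15546 and 3058 in RYGB-Success and 15993, 13948 and 4487 in RYGB-Fail. Its change was -1.29 ± 0.58 in RYGB-Success (adjusted p = 0.975) and -1.01 ± 0.58 in RYGB-Fail. Array 3 of each RYGB group was the lowest by far, and every Pair-Fed array was above every RYGB array. Col3a1, which forms type III collagen in fibres with type I, had 28525, 30527 and 23114 in Pair-Fed, 13632, 23030 and 4692 in RYGB-Success and 18537, 14494 and 8865 in RYGB-Fail. RYGB-Success 2 came just below the lowest Pair-Fed array, and the other RYGB arrays lay further down. Changes of Col3a1 were -1.26 ± 0.48 and -1.03 ± 0.48. Col1a2, the partner chain of type I collagen, had -1.36 ± 0.45 and -0.75 ± 0.45. Among the chains of type V collagen, which sets the diameter of type I fibres, Col5a1 had the largest difference of the group in RYGB-Success, -2.35 ± 0.60, and Col5a2 the smallest, -0.88 ± 0.32.

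Of the other collagens, Col6a2 and Col6a3 encode chains of type VI collagen, a microfibril network around cells that is abundant in fat. Signals of Col6a3 were 2772, 2079 and 2591 in Pair-Fed, 1577, 1053 and 454 in RYGB-Success and 3403, 1609 and 938 in RYGB-Fail. RYGB-Success lay wholly below Pair-Fed (-1.44 ± 0.51), while RYGB-Fail 1 was the highest of all 9 arrays and that group overlapped Pair-Fed (-0.51 ± 0.51). Col6a2 had, on its brighter probe set, -1.19 ± 0.37 and -0.33 ± 0.37. Col12a1, a collagen that sits on fibril surfaces, was at 0.01 ± 0.48 and -0.01 ± 0.48.

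The basement membrane is the thin sheet around each adipocyte and vessel. All 7 of its genes were lower in each RYGB group than in Pair-Fed, with medians of -0.73 in RYGB-Success and -0.63 in RYGB-Fail, and 3 and 5 of them without overlap. Col4a2, which pairs with Col4a1 in the type IV collagen sheet, had 13863, 15434 and 16557 in Pair-Fed, 11684, 11621 and 7393 in RYGB-Success and 10814, 5919 and 10690 in RYGB-Fail. Both RYGB groups were below every Pair-Fed array, at -0.61 ± 0.30 and -0.79 ± 0.30 (adjusted p = 1 for RYGB-Fail, the lowest p of any member in that comparison before adjustment). Col4a1 had 2850, 4535 and 3256 in Pair-Fed, 3129, 2018 and 1465 in RYGB-Success and 1994, 2045 and 2813 in RYGB-Fail. RYGB-Success 1 reached into the Pair-Fed range, and RYGB-Fail 3 came close to it (-0.73 ± 0.34 and -0.63 ± 0.34). Nid1, nidogen, which links laminin to type IV collagen, had 6940, 11557 and 8045 in Pair-Fed, 5576, 6971 and 4771 in RYGB-Success and 6259, 4589 and 5290 in RYGB-Fail. Its change was -0.60 ± 0.28 and -0.70 ± 0.28, and a dimmer Nid1 probe set had 0.62 in RYGB-Success, the opposite sign. Col15a1 and Col18a1, collagens of basement membranes that carry glycosaminoglycan chains, had -0.76 ± 0.31 and -1.05 ± 0.47 in RYGB-Success. The laminin chains Lamb2 and Lamc1 had -0.86 ± 0.32 and -0.24 ± 0.40.

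Small leucine-rich proteoglycans bind collagen fibrils and regulate their assembly. In RYGB-Success fat 5 of the 6 proteoglycans were lower, 4 of them without overlap, with a median of -1.30, and the median in RYGB-Fail was -0.57 with 0 without overlap. Dcn, decorin, had 17334, 13984 and 7846 in Pair-Fed, 4716, 4544 and 2163 in RYGB-Success and 15124, 7975 and 1984 in RYGB-Fail. Every RYGB-Success array was below every Pair-Fed array, and those of RYGB-Fail spread from near the Pair-Fed top to below every other array (-1.79 ± 0.62 and -1.0 ± 0.62). Lum, lumican, had 2545, 897 and 1188 in Pair-Fed, 219, 634 and 744 in RYGB-Success and 2207, 492 and 697 in RYGB-Fail. All RYGB-Success arrays and 2 of the RYGB-Fail arrays were below Pair-Fed (-1.57 ± 0.63 and -0.61 ± 0.63). Ogn, osteoglycin, had 3365, 3232 and 2323 in Pair-Fed, 1254, 596 and 648 in RYGB-Success and 2432, 2214 and 896 in RYGB-Fail. It had the largest difference of the group, -1.90 ± 0.43 in RYGB-Success (adjusted p = 0.487), against -0.80 ± 0.43 in RYGB-Fail. Bgn, biglycan, had -1.03 ± 0.38 and -0.53 ± 0.38. Fmod, fibromodulin, was the one proteoglycan with a higher mean in both, 0.51 ± 0.41 and 0.18 ± 0.41, with overlapping arrays. Vcan, the large aggregating proteoglycan versican, had -0.46 ± 0.46 and -0.18 ± 0.46, and its 5 tested probe sets differed in sign, from -0.46 to 0.56 in RYGB-Success.

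Elastic fibres consist of elastin on a scaffold of fibrillin microfibrils, and in RYGB-Success against Pair-Fed their genes had the widest range of the 8 roles, from -2.93 to -0.04. Mfap5, a glycoprotein bound to microfibrils, had 7423, 6706 and 5949 in Pair-Fed, 1683, 1042 and 381 in RYGB-Success and 6316, 4374 and 2438 in RYGB-Fail. RYGB-Success lay below both other groups without overlap, and RYGB-Fail 1 reached into the Pair-Fed range. Its mean was 7.62-fold lower in RYGB-Success than in Pair-Fed (-2.93 ± 0.50, adjusted p = 0.482) and 4.65-fold lower than in RYGB-Fail (-2.22 ± 0.50, adjusted p = 0.587). Fbn1, fibrillin 1, had 3903, 2001 and 4239 in Pair-Fed, 854, 1387 and 247 in RYGB-Success and 3283, 1270 and 1575 in RYGB-Fail. RYGB-Success was below Pair-Fed throughout (-2.27 ± 0.59), and RYGB-Fail overlapped it (-0.78 ± 0.59). Mfap4, another microfibril-associated protein, had 2633, 960 and 1954 in Pair-Fed, 422, 400 and 164 in RYGB-Success and 3458, 1090 and 390 in RYGB-Fail. Every RYGB-Success array was below every Pair-Fed array (-2.49 ± 0.70), and RYGB-Fail held both the highest array of all and one lower than 2 of RYGB-Success. Eln, elastin itself, was dim, with 64.7, 196 and 251 in Pair-Fed, 112, 123 and 79.4 in RYGB-Success and 163, 109 and 104 in RYGB-Fail. Its groups overlapped (-0.51 ± 0.65 and -0.26 ± 0.65). Fbln2, Fbln5 and Efemp1 are members of the fibulin family, which assists fibre assembly, and had -1.10 ± 0.40, -0.54 ± 0.50 and -0.04 ± 0.44 in RYGB-Success.

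Enzymes and chaperones that finish matrix fibres were lower in RYGB-Success in 4 of 4 genes, 3 of them without overlap, with a median of -1.78, the lowest median of the 8 roles. In RYGB-Fail the median was -0.76 and 1 of 4 did not overlap. Lox, lysyl oxidase, which crosslinks collagen and elastin, had 3541, 2831 and 4499 in Pair-Fed, 1224, 1015 and 912 in RYGB-Success and 4281, 2293 and 776 in RYGB-Fail. The RYGB-Success arrays lay close together and below Pair-Fed (-1.77 ± 0.50), and RYGB-Fail ran from within the Pair-Fed range to the lowest value (-0.86 ± 0.50). Loxl1, its relative needed for elastic fibre renewal, had 838, 760 and 838 in Pair-Fed, 211, 362 and 131 in RYGB-Success and 741, 548 and 409 in RYGB-Fail. The groups followed one another without overlap, with a 3.77-fold lower mean in RYGB-Success than in Pair-Fed (-1.91 ± 0.42, adjusted p = 0.482) and 2.55-fold lower than in RYGB-Fail (-1.35 ± 0.42, adjusted p = 0.809). Pcolce, which enhances the cleavage of procollagen, had 2597, 2757 and 1957 in Pair-Fed, 1079, 545 and 584 in RYGB-Success and 2436, 1661 and 871 in RYGB-Fail, a change of -1.78 ± 0.42 in RYGB-Success (adjusted p = 0.487). Serpinh1, the collagen chaperone HSP47, had -0.98 ± 0.72 in each RYGB group.

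All 5 genes of proteases and their inhibitors had a lower mean in each RYGB group than in Pair-Fed, with medians of -0.73 in RYGB-Success, 2 of them without overlap, and -0.52 in RYGB-Fail, 0 without overlap. Timp2, an inhibitor of metalloproteinases that also takes part in activating Mmp2, had 5191, 5738 and 5502 in Pair-Fed, 2312, 1245 and 922 in RYGB-Success and 5546, 4536 and 2280 in RYGB-Fail. Pair-Fed arrays agreed closely, and every RYGB-Success array was below every Pair-Fed array, by 3.95-fold in the mean (-1.98 ± 0.40, adjusted p = 0.482). RYGB-Fail 3 lay just under RYGB-Success 1, and the change from RYGB-Fail was -1.48 ± 0.40 (adjusted p = 0.748). Timp3, an inhibitor held in the matrix, had 12620, 15706 and 11410 in Pair-Fed, 14791, 14601 and 8715 in RYGB-Success and 14438, 6002 and 8928 in RYGB-Fail. Its groups overlapped (-0.09 ± 0.34 and -0.52 ± 0.34), and the sign of the first value was not stable. Timp1, an inhibitor induced in inflammation, had 892, 594 and 377 in Pair-Fed, 445, 272 and 357 in RYGB-Success and 971, 410 and 26.1 in RYGB-Fail. The last array made its RYGB-Fail change -1.42 ± 1.00, which was 0.11 without that array. Mmp2, gelatinase A, had 8493, 6569 and 6094 in Pair-Fed, 5602, 5883 and 2280 in RYGB-Success and 9388, 7375 and 2935 in RYGB-Fail. RYGB-Success lay below Pair-Fed by a narrow margin apart from its array 3 (-0.73 ± 0.46), and RYGB-Fail overlapped (-0.25 ± 0.46, and 0.25 without RYGB-Fail 3). Mmp14, the membrane-bound activator of Mmp2, had -0.39 ± 0.88 and -0.73 ± 0.88.

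Adhesive glycoproteins join cells to the fibres. Fn1, fibronectin, had 3267, 1150 and 2292 in Pair-Fed, 294, 558 and 299 in RYGB-Success and 2935, 710 and 679 in RYGB-Fail. RYGB-Success was below both other groups without overlap, at -2.48 ± 0.58 against Pair-Fed (adjusted p = 0.487) and -1.61 ± 0.58 against RYGB-Fail (adjusted p = 0.827). Ecm1, a secreted glycoprotein that binds other matrix proteins, had 3150, 3675 and 2967 in Pair-Fed, 974, 786 and 394 in RYGB-Success and 3170, 1625 and 1281 in RYGB-Fail. It too was lower in RYGB-Success than in each other group without overlap, by 4.85-fold against Pair-Fed (-2.28 ± 0.42, adjusted p = 0.482) and 2.80-fold against RYGB-Fail (-1.48 ± 0.42, adjusted p = 0.762). Postn, periostin, which binds collagen and fibronectin, had 13584, 12357 and 7502 in Pair-Fed, 4230, 6261 and 2102 in RYGB-Success and 11816, 7238 and 2258 in RYGB-Fail. RYGB-Success was below Pair-Fed and RYGB-Fail overlapped it (-1.50 ± 0.56 and -0.90 ± 0.56). Sparc, a collagen-binding protein, had 41917, 41819 and 37860 in Pair-Fed, 29971, 33615 and 12679 in RYGB-Success and 24224, 21761 and 29569 in RYGB-Fail. Every RYGB array of either group was below every Pair-Fed array (-0.79 ± 0.33 and -0.70 ± 0.33). A dimmer Sparc probe set gave a larger difference, 18636, 15060 and 12138 in Pair-Fed against 5055, 2825 and 1055 in RYGB-Success, or -2.61. Thbs2, thrombospondin 2, was at -0.02 ± 0.62 and 0.11 ± 0.62.

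**Figure D3:**
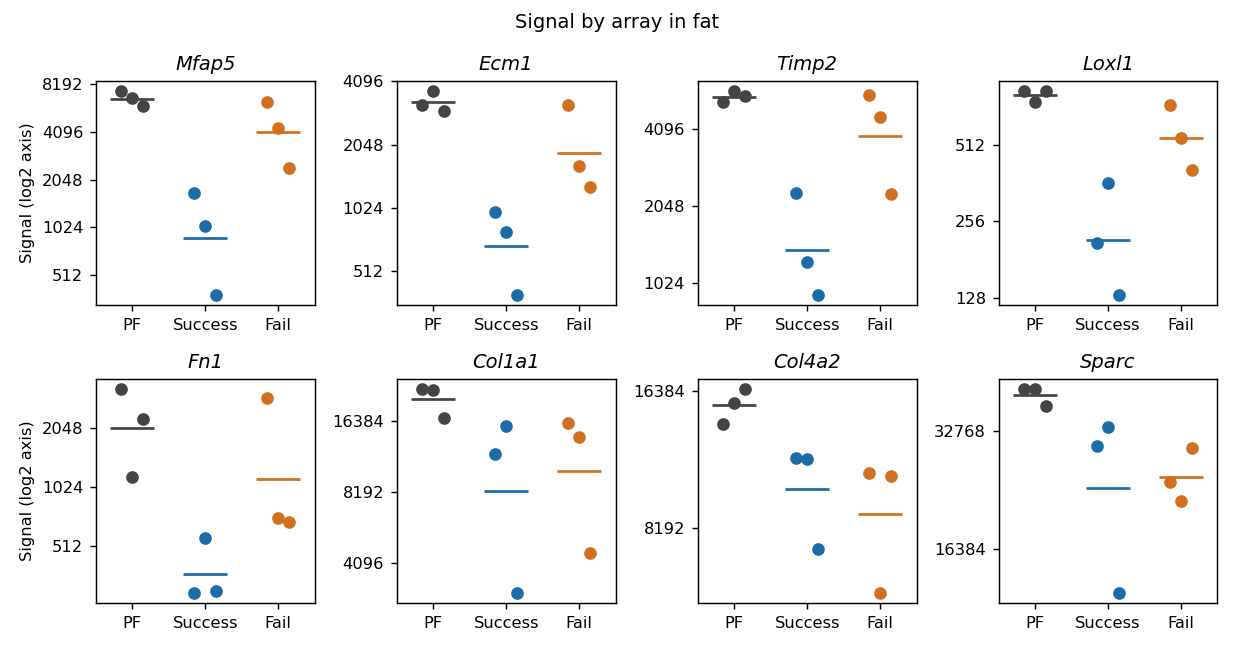
Deposited signal on each fat array (points, log2 axis) and geometric group mean (line) for 8 matrix genes in Pair-Fed (PF), RYGB-Success and RYGB-Fail rats. Mfap5, Ecm1, Loxl1 and Fn1 show RYGB-Success arrays below both other groups, whereas for Col4a2 and Sparc both RYGB groups lie below Pair-Fed and overlap each other.

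Other genes of the matrix and its surroundings were taken as lists. Of 31 further structural matrix genes tested, 21 were lower in RYGB-Success than in Pair-Fed fat, with a median of -0.48, and 8 were lower and 1 higher at an unadjusted p under 0.05, against the 3.02% and 1.84% of all probe sets given above. Those with the lowest p were Aspn, asporin, at -2.95 ± 0.58, Nid2, nidogen 2, at -1.74 ± 0.36, Ecm2 at -2.36 ± 0.65 and Col5a3 at -1.25 ± 0.40. In RYGB-Fail 26 of the 31 were lower, with a median of -0.51 and 0 at an unadjusted p under 0.05 in either direction. Of all probe sets 58.1% were lower in that comparison. Of 21 matrix enzymes, 14 were lower in RYGB-Success (median -0.26), where 41.8% of all probe sets were lower. At an unadjusted p under 0.05, 4 were lower and 2 higher, against the same 3.02% and 1.84%. They included Mmp23 at -2.03 ± 0.50, Adamts5, an aggrecanase, at -1.18 ± 0.31 and Ctsk, the collagen-degrading cathepsin K, at -1.86 ± 0.62, while Tgm2, transglutaminase 2, had 1.27 ± 0.42. Among 15 genes of transforming growth factor beta signalling, a pathway known to induce matrix genes, 9 were higher and 6 lower, with a median of 0.06. Among 13 integrins and other matrix receptors 7 were higher and 6 lower, with a median of 0.02. Of these 2 were lower and 0 higher at an unadjusted p under 0.05, the collagen receptor Ddr2 at -1.97 ± 0.64 and integrin Itgb5 at -2.01 ± 0.80. With limma 0 genes of these 4 lists passed in any comparison of treatment groups in fat, where 0% of all probe sets did.

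Markers of cell types were read on the same arrays, without a test. Fibroblast markers that are not among the members, 17 of 18 on the array, had a mean log2 signal of 10.38 to 10.75 in Pair-Fed, 8.95 to 9.54 in RYGB-Success and 9.53 to 10.46 in RYGB-Fail. As for the members, every RYGB-Success array lay below every Pair-Fed array. Epithelium markers, 12 of 12, were at 4.84 to 5.34 in Pair-Fed. They were at 5.59, 8.85 and 8.53 in RYGB-Success and at 4.56, 5.06 and 7.15 in RYGB-Fail. Lymphocyte markers, 9 of 11, were at 10.65 on RYGB-Success 3 and at 6.20 to 7.49 on the other fat arrays. Skeletal muscle markers, 14 of 15, ran from 5.67 to 6.97 in Pair-Fed and from 7.17 to 8.20 in RYGB-Success and were 11.77, 14.14 and 8.81 in RYGB-Fail. Adipocyte markers, 11 of 12, ran from 11.89 to 12.62 in Pair-Fed, 11.28 to 12.11 in RYGB-Success and 11.08 to 12.42 in RYGB-Fail, so all 9 arrays held adipocyte RNA. The skeletal muscle mean was above the adipocyte mean on RYGB-Fail 1, 11.77 against 11.46, and on RYGB-Fail 2, 14.14 against 11.08. Endothelium markers, 10 of 11, ran from 10.19 to 10.79, 10.67 to 11.13 and 9.67 to 10.76. Macrophage markers, 11 of 12, ran from 9.91 to 11.12, 9.27 to 10.12 and 8.79 to 10.98. Red blood cell markers, 4 of 7, ran from 6.53 to 7.48 in Pair-Fed, 8.72 to 8.92 in RYGB-Success and 6.38 to 7.35 in RYGB-Fail, so RYGB-Success was above both other groups. Mast cell markers, 9 of 10, ran from 7.40 to 7.93, 6.35 to 7.16 and 6.61 to 8.03, and mural cell markers, 10 of 10, from 8.36 to 8.86, 8.66 to 8.87 and 8.60 to 8.91. No marker was listed at 0, but only 6 of the 12 epithelium, 6 of the 9 mast cell and 2 of the 4 red blood cell markers were above the filter in fat. The part of these markers in the matrix values was not tested.

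Pair-Fed fat and Pair-Fed hypothalamus were compared to place the members by tissue. Of 41 members tested, 40 were higher in fat and 38 passed, all higher, against 30.8% of all probe sets that passed higher and 23.6% lower. The median difference was 4.32 over the members and 0.21 over all probe sets. Of the 38, 7 had a hypothalamic mean under 52.7, the lowest mean signal kept in the hypothalamus fit: Col6a3, Col4a1, Fbn1, Mfap5, Mmp14, Timp1 and Postn. In this comparison the lowest mean signal kept was 68.5, so these 7 were tested only because of their fat signal. So were Col5a1, Mfap4 and Pcolce, whose hypothalamic means lay between these limits. Of the 34 members other than the 7, 31 passed, with a median of 4.02 over the 34. The 34 still hold Col5a1, Mfap4 and Pcolce, which could only come out higher in fat, so this count and median are not free of the filter. Fibrillar collagens had the highest median of the 8 roles, 6.05, with Col3a1 at 7.57 ± 0.27 (190-fold, adjusted p = 6.71e-08), Col1a1 at 6.57 ± 0.33 (95-fold) and Col1a2 at 6.05 ± 0.20 (66.3-fold, adjusted p = 6.62e-08). Hypothalamic signals of Col3a1 were 172, 92.6 and 184, against 28525, 30527 and 23114 in fat. Basement membrane collagens were higher in fat as well, Col15a1 by 6.40 ± 0.20 (adjusted p = 5.41e-08) and Col4a2 by 4.93 ± 0.16 (adjusted p = 6.06e-08). For Mfap5 and Postn, of the 7, the fat signal was at least 126-fold and at least 184-fold higher with hypothalamic arrays held at no less than 52.7. That is a filter value and no measured limit of detection. The tissues were closer for Sparc, at 13822, 10918 and 12527 in hypothalamus and 3.27-fold higher in fat (adjusted p = 1.67e-06), and for Timp3, at 3698, 3565 and 2301 in hypothalamus and 4.21-fold higher in fat (adjusted p = 1.92e-05). The 3 members that did not pass were Fmod (0.60 ± 0.28, adjusted p = 0.0915), Vcan (0.42 ± 0.26, adjusted p = 0.199) and Fbln1 (-0.44 ± 0.72, adjusted p = 0.626).

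**Figure D4:**
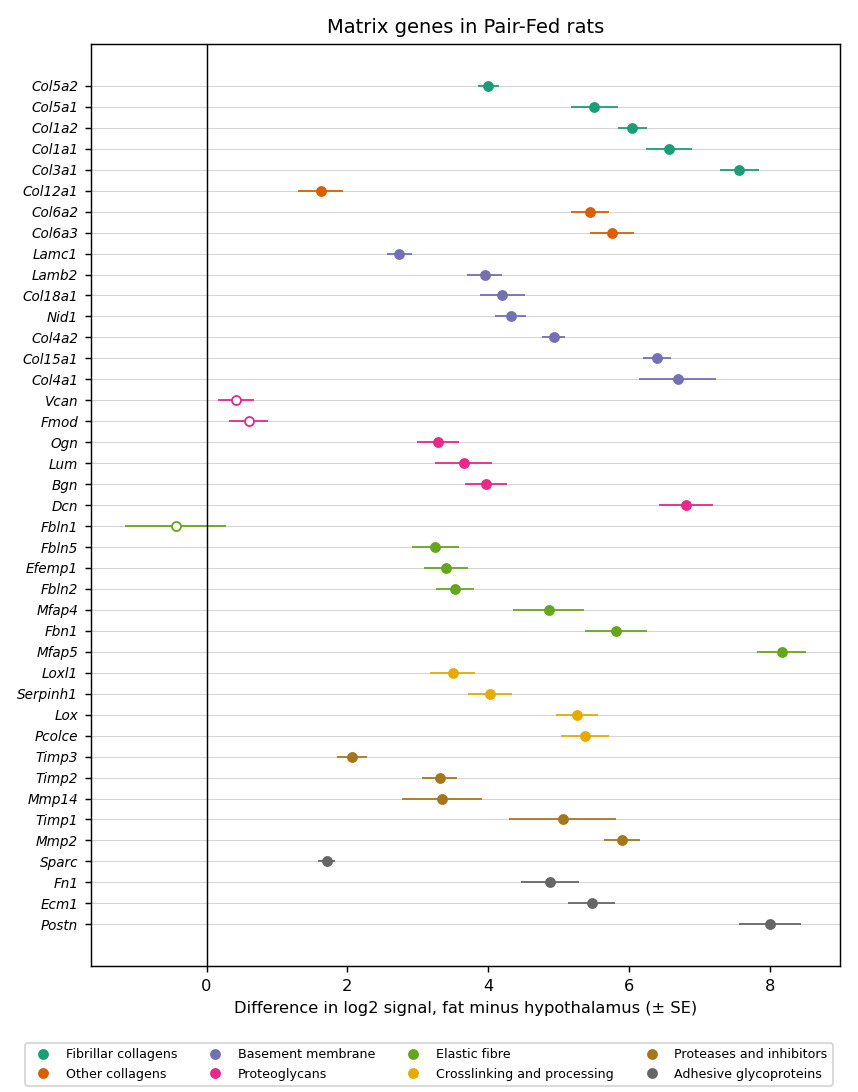
Difference in log2 signal between fat and hypothalamus of Pair-Fed rats for 41 matrix genes, grouped by role (points; bars are ± SE from limma, 3 arrays per tissue); filled points passed an adjusted p of 0.05 and open points did not. The 38 filled points lie right of 0 and the open points are Vcan, Fmod and Fbln1.

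In the hypothalamus 31 members were bright enough to test and 12 were not, among them Col6a3, Fbn1, Eln, Mfap5, Timp1 and Postn. RYGB-Success against Pair-Fed gave 18 members higher and 13 lower, with a median of 0.07 against 0.05 over all probe sets. With limma 0 members passed, as did 0.0107% of all probe sets. At an unadjusted p under 0.05 there were 3 members against 13.1% of all probe sets, and 4 members had groups that did not overlap against 18%, so these shares lay at or below the background. Lox had signals of 82.5, 133 and 73.3 in Pair-Fed, 153, 236 and 244 in RYGB-Success and 85.6, 165 and 194 in RYGB-Fail. RYGB-Success was above every Pair-Fed array (1.15 ± 0.39, adjusted p = 0.275). A dimmer Lox probe set had 86.9, 119 and 80.5 in Pair-Fed and 80.5, 117 and 282 in RYGB-Success, with overlap and a change of 0.56. Mfap4 had 88.6, 28.3 and 81 in Pair-Fed, 102, 93.6 and 232 in RYGB-Success and 101, 115 and 71.9 in RYGB-Fail, again without overlap between the first 2 groups (1.15 ± 0.52, adjusted p = 0.371). The change of Mfap4 was 0.62 without Pair-Fed 2 and 0.73 without RYGB-Success 3. Pair-Fed 2 also had the highest beta-actin 3' to 5' ratio of the tissue, 179 against 6.65 to 48.5 on the other arrays, whose part in the value was not tested. Timp3, at 3864, 3702 and 5242 in RYGB-Success, was above its Pair-Fed arrays (0.44 ± 0.22, adjusted p = 0.425), and its change was 0.22 without Pair-Fed 3. Col5a2 had 1133, 1138 and 1094 in Pair-Fed, 836, 977 and 552 in RYGB-Success and 1046, 1112 and 1315 in RYGB-Fail, and was lower in RYGB-Success than in either other group without overlap (-0.55 ± 0.24, adjusted p = 0.362). The 4 tested fibrillar collagens were all lower in RYGB-Success than in Pair-Fed, with a median of -0.53 and 1 without overlap. Ecm1 and Mmp2 had 0.79 ± 0.45 and 0.62 ± 0.36 with overlapping arrays. Without RYGB-Success 3, 5 of the 6 named values moved by over 1.5 times, to 0.42 for Ecm1, 0.27 for Mmp2, -0.31 for Col5a2 and 0.28 for Timp3 beside the value of Mfap4 above. Ecm1 was also 0.45 without Pair-Fed 1. Probe sets differed in sign for 4 of the 11 genes with several. Red blood cell markers, 4 of 7 on the array and 2 of these above the filter, were at 8.82 on each RYGB-Success array and from 5.88 to 7.36 on the others. Choroid plexus markers, 8 of 10, ran from 7.07 to 7.77 in Pair-Fed, 7.80 to 8.30 in RYGB-Success and 8.10 to 8.39 in RYGB-Fail, so both RYGB groups lay above Pair-Fed. Lymphocyte markers, 9 of 11, ran from 3.80 to 4.36, 4.48 to 4.85 and 4.18 to 4.94 and mast cell markers, 9 of 10, from 2.68 to 4.0, 4.30 to 4.82 and 3.71 to 4.30, but only 2 of the 9 lymphocyte and 0 of the 9 mast cell markers were above the filter there. Leptomeninges markers, 10 of 11, ran from 7.26 to 7.75 over all 9 arrays and fibroblast markers from 6.55 to 7.38. Of these, 7 of the 10 leptomeninges and 11 of the 17 fibroblast markers were above the filter. Levels within the lists were uneven, with Pdgfra at 7215 to 16327, Thy1 at 3722 to 6232 and Dpp4 at 8.62 to 52.7 among fibroblast markers. Gjb6 of the leptomeninges list had 2245 to 5633. These 2 means are thus not read as the content of fibroblasts or meninges. The part of these markers in the matrix values was not tested. Neuron markers, 10 of 10, were at 11.28 to 11.82, astrocyte markers, 6 of 7, at 11.36 to 11.81 and oligodendrocyte markers, 7 of 8, at 11.91 to 12.24, so the label of brain tissue held.

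RYGB-Fail against Pair-Fed hypothalamus gave 14 members higher and 17 lower, with a median of -0.03 and 0 members past the test, as for 0% of all probe sets. At an unadjusted p under 0.05 there were 0 members against 2.39% of all probe sets, and 2 did not overlap against 9.18%. These were Mmp2, at 97.3, 153 and 107 in Pair-Fed and 153, 158 and 165 in RYGB-Fail (0.44 ± 0.36), and Lamc1, at 830, 645 and 833 against 507, 619 and 621 (-0.40 ± 0.23). The other Lamc1 probe set had 0.66, the opposite sign, and signs differed for 5 of the 11 genes with several probe sets. Lox, Timp2, Fbln5 and Mfap4 had 0.59 ± 0.39, 0.43 ± 0.30, -0.45 ± 0.32 and 0.68 ± 0.52, with overlap, and 4 of the 6 named values moved by over 1.5 times when 1 array was left out. Between RYGB-Success and RYGB-Fail hypothalamus, 19 members were higher and 12 lower in RYGB-Success, with a median of 0.18. With limma 0 members and 0.00537% of all probe sets passed. At an unadjusted p under 0.05 there were 3 members, all lower, against 6.01% of all probe sets, and 6 did not overlap against 10.5%. Fmod had 108, 196 and 136 in RYGB-Success and 244, 288 and 213 in RYGB-Fail (-0.79 ± 0.30, adjusted p = 0.784). Col15a1 had 149, 202 and 158 against 266, 289 and 262 (-0.69 ± 0.28). Col5a2, whose values stand above, had -0.59 ± 0.24. These 3 were lower in RYGB-Success without overlap, and Fbln5 (0.63 ± 0.32), Fn1 (0.89 ± 0.46) and Timp3 (0.36 ± 0.22) were higher without overlap. Sparc had 0.45 ± 0.24 with overlapping arrays. It was 0.14 without RYGB-Success 3, 0.30 without RYGB-Fail 3, 0.70 without RYGB-Success 1 and 0.22 with quantile normalization, and its dimmer probe set had -0.02. Col5a2 was -0.35 without RYGB-Success 3. Signs differed for 6 of the 11 genes with several probe sets.

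Whether the RYGB groups differed from Pair-Fed by unlike amounts in the 2 tissues was examined with an interaction term in a fit of all 18 arrays and the 15531 probe sets bright enough for testing in each tissue, 30 of them standing for members. For RYGB-Success, 26 members had a lower change in fat than in hypothalamus, with a median of -0.90. Of all probe sets 48.3% were lower, with a median of 0.03. With limma 0 members and 0% of all probe sets passed, and 12 members had an unadjusted p under 0.05 on the lower side, against 4.56% of all probe sets. The lowest p belonged to Ecm1 (-3.07 ± 0.60, adjusted p = 0.233), Lox (-2.92 ± 0.67, adjusted p = 0.255), Fn1 (-3.18 ± 0.74, adjusted p = 0.262) and Timp2 (-2.19 ± 0.52, adjusted p = 0.262). With array weights these 4 passed, at 0.0429 for Ecm1 and Timp2, 0.0464 for Lox and 0.0491 for Fn1. Fmod at 0.97 ± 0.49, Efemp1 at 0.32 ± 0.57 and Col12a1 at 0.10 ± 0.69 had the opposite sign, and Lamc1 was at 0.00 ± 0.47. For RYGB-Fail, 27 members were lower, with a median of -0.61, where 59% of all probe sets were lower with a median of -0.11. With limma 0 members and 0% of all probe sets passed, and 3 members, Lox (-1.44 ± 0.67), Ecm1 (-1.29 ± 0.60) and Col15a1 (-0.85 ± 0.40), had an unadjusted p under 0.05 against 1.84% of all probe sets. Timp2 followed with -0.94 ± 0.52, and Col12a1, Vcan and Lamc1 had the opposite sign at 0.36 ± 0.69, 0.07 ± 0.59 and 0.05 ± 0.47.

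**Figure D5:**
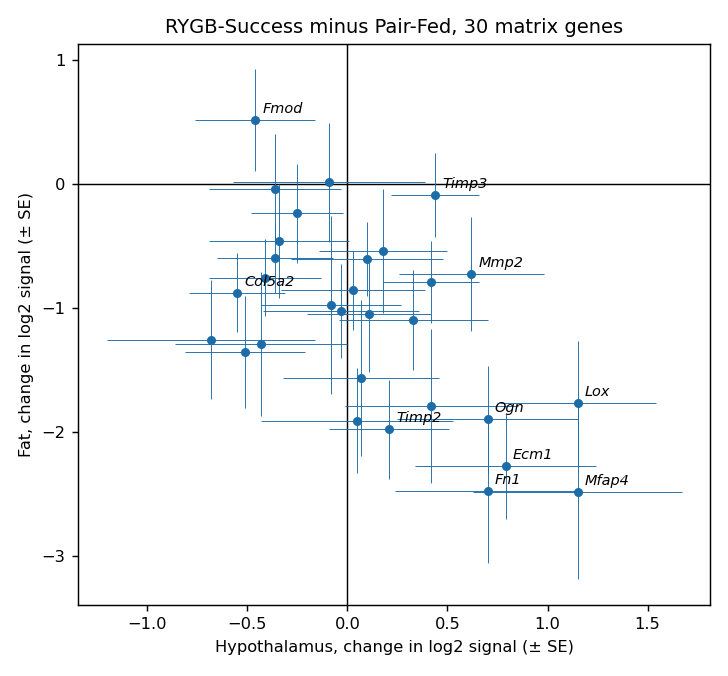
Change from Pair-Fed to RYGB-Success in hypothalamus (horizontal axis) and in fat (vertical axis) for the 30 matrix genes tested in both tissues, in log2 signal (points; bars are ± SE from limma, 3 arrays per group). Lox and Mfap4 lie farthest right, at 1.15 in hypothalamus and at -1.77 and -2.49 in fat, and most other genes lie below 0 in fat on either side of 0 in hypothalamus.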

How the data were processed

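Per the labels' protocols, total RNA was amplified with a NuGEN WT Ovation kit and labelled with biotin. The authors deposited 1 linear intensity per probe set and array, and per the submitters' processing notes the software was GCOS and MAS5. Versions, settings and detection calls are not given in the sources used here. MAS5 intensity near the lower end scatters widely on a log scale. The number of arrays, not a read depth, limits precision.

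Groups and replicate numbers came from the titles. Values were log2 of the deposited intensity with no pseudocount. Each fit tested the brightest 60% of 31042 probe sets (mean log2 over its arrays), 18625 probe sets, which set the lowest mean signal at 88.9 in fat and 52.7 in hypothalamus. The tests came from limma 3.58.1 under R 4.3.3, with lmFit and a mean trend in eBayes, over the 9 arrays of a tissue, the 6 Pair-Fed arrays for the tissue difference, or all 18 for the interaction. Tests were 2-sided, with Benjamini-Hochberg adjustment over all tested probe sets and a threshold of 0.05, and ± is the SE of the fit unless stated otherwise. Each p-value sets a difference of group means against the spread between samples within groups, pooled over all groups of the fit. The step was tested on simulated data. Tables, motif searches and plots used Python 3.11.15, pandas 2.3.3 and matplotlib 3.10.9.

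All members are accounted for. Those named with values are 16 fixed anchors, the 6 members with the lowest p in each comparison within a tissue, up to 4 per direction in the others, and the extremes of each role. Col1a2, Bgn, Fbln2, Lamb2 and further members were named after their values were seen, to show each role in full. The members, roles and lists were chosen with earlier results of these data known. The median correlation of the deviations of same-numbered samples was 0.032 in fat, -0.055 in hypothalamus and 0.057 across tissues. Across tissues the 9 same-numbered pairs ran from -0.059 to 0.204, and pairs with unlike numbers had a median of -0.019. So few pairs cannot show whether a number marks the same animal. The labels do not say that it does, so the numbers were not taken to pair the samples.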

Additional observations from a re-analysis of the deposited data

Results flagged for a closer look

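Lox and Mfap4 differed from Pair-Fed in opposite directions in the 2 tissues of RYGB-Success rats: for both genes every RYGB-Success array lay below every Pair-Fed array in fat and above every Pair-Fed array in hypothalamus. The difference between the tissues' changes was -3.64 ± 0.92 for Mfap4 (limma adjusted p = 0.295) and -2.92 ± 0.67 for Lox (limma adjusted p = 0.255), so neither passed. Lox passed with array weights (-2.58, adjusted p = 0.0464) and without fat RYGB-Fail 3 (adjusted p = 0.0443), where its value stayed at -2.92. That array enters this difference only through the shared spread. Leaving out any other array gave Lox a limma adjusted p of 0.0929 to 0.542. Mfap4 passed under none of the alternatives, with values from -2.85 to -4.06. The dimmer Lox probe set, whose hypothalamic arrays overlapped, had -2.18 (adjusted p = 0.48). The hypothalamic change of Mfap4 was 1.15, and 0.62 without Pair-Fed 2. Hypothalamic Pair-Fed signals of Mfap4, 88.6, 28.3 and 81, and of Lox, 82.5, 133 and 73.3, were close to the lowest mean signal kept there, 52.7.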

How the results depend on the processing

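Of 98 member results, 65 kept direction and side of the threshold under every alternative run. Array weights gave 39, 35 and 26 calls over all probe sets in fat for RYGB-Success against Pair-Fed, RYGB-Fail against Pair-Fed and RYGB-Success against RYGB-Fail, and leaving out 1 array gave 0 to 22, 0 to 42 and 0 to 1116. In hypothalamus, RYGB-Success against Pair-Fed had 1 call with the upper 40% of probe sets, 6 with median centring and 6 with array weights (1 to 65 without 1 array), and the member median was -0.29, -0.16 and -0.17 under these, against 0.07. RYGB-Success against RYGB-Fail had 2 calls with a pseudocount, no filter, quantile normalization, median centring or the replicate block and 6 with array weights (0 to 6 without 1 array). Its member median was -0.17 with the upper 40%, -0.02 with array weights (16 lower, 15 higher) and 0.05 to 0.43 without 1 array. The replicate block changed no call of a member, and in RYGB-Fail against Pair-Fed fat it raised the members with an unadjusted p under 0.05 from 2 to 10. The share of all probe sets under the block is not given here, so this rise is not read as particular to the members. The tissue median was 3.73 with a pseudocount, 4.86 with the upper 40% and 3.81 with median centring. The interactions had 35 and 12 calls with array weights and 0 to 41 and 0 to 17 without 1 array. Median centring moved the median of all probe sets from 0.11 to -0.27 in the fat comparison of RYGB-Success with Pair-Fed, and that of the members to -1.41.

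The following directions turned, among them Timp1 in RYGB-Fail against Pair-Fed, -1.42, the largest fall there, and in RYGB-Success against RYGB-Fail, 0.69, the largest rise there. With array weights, fat of RYGB-Success against Pair-Fed gave 0.02 for Timp3 (-0.22 to 0.16 without 1 array). RYGB-Fail against Pair-Fed gave 0.09 for Col6a3, 0.10 for Lum, 0.09 for Timp1 (-2.50 to 0.11) and 0.24 for Mmp2 (-0.58 to 0.25), and Eln ran from -0.85 to 0.13. RYGB-Success against RYGB-Fail gave 0.19 for Col4a1 (-0.39 to 0.16), -0.73 for Timp1 (-0.85 to 1.76) and 0.11 for Sparc (-0.36 to 0.35), and without 1 array Col1a1 ran from -0.85 to 0.44 and Col3a1 from -0.74 to 0.41. Fbln1 between tissues ran from -1.14 to 0.40. In the RYGB-Success interaction Col12a1 had -0.04 with median centring (-0.36 to 0.52), and Lamc1 -0.01 with a pseudocount and -0.13 with median centring (-0.35 to 0.43). In the RYGB-Fail interaction quantile normalization gave -0.07 for Col12a1 and -0.33 for Vcan (-0.44 to 0.38), and Lamc1 ran from -0.25 to 0.33. The cause was not tested.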
